A study of Mus musculus with 13 samples.

Results

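Trazodone was compared with water in the cortex of APP/PS1 mice, over 7 of the 13 libraries of the series: 3 from APP/PS1 mice given distilled water and 4 from APP/PS1 mice given trazodone. Libraries were chosen by their labels, and the comparison covers the 18612 of 53832 gene entries with a mean of at least 0.5 TPM (a share of the library's transcripts, scaled for gene length) over the 13 libraries. Sample titles state 2 weeks for every group. The other 6 libraries came from WT mice given distilled water. They entered the estimate of the spread between libraries and are quoted as a reference level. WT mice given trazodone are not among the samples analysed here, so an effect of trazodone outside the APP/PS1 genotype could not be measured. The labels do not give the promoter of the transgenes, the dose or the age and sex of the mice, and each library was treated as 1 mouse. Poly(A) RNA came from the right cortices of mice perfused with saline buffer.

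APP/PS1 mice carry transgenes that raise amyloid production and deposit amyloid plaques, which are surrounded by reactive microglia and astrocytes. Trazodone is an antidepressant that blocks serotonin 2A, alpha-1 adrenergic and histamine H1 receptors and inhibits the serotonin transporter. In mouse models of neurodegeneration it is also known to restore protein synthesis that is held down by phosphorylation of the initiation factor eIF2-alpha, the step that induces the transcription factor Atf4 in the integrated stress response. The series title names soluble ST2, the decoy form of the interleukin 33 receptor that is encoded by Il1rl1. The comparison asks which gene classes differed with the treatment, and what was measured for ST2 and for the pathways on which the drug acts.

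Trazodone libraries had higher levels of many small-protein, respiratory chain, synaptic and granin genes. Levels of mitochondrially encoded transcripts, metallothioneins and some lysosomal and endoplasmic reticulum (ER) genes were lower. These classes were chosen with earlier results of these data known. Of the 10 tested mitochondrial mRNAs, 0 passed the test after a correction for GC content and transcript length, given below. By limma on log2(TPM + 0.5), with Benjamini-Hochberg adjusted p under 0.05, 2319 genes were higher (12.5% of those tested) and 730 were lower (3.92%). Of these, 177 were higher and 36 lower by at least 2-fold, and the median log2 fold change over all genes was 0.07. The split leaned less to higher calls under other scalings, with 1806 higher and 1223 lower on FPKM, 1636 and 1384 after median-ratio scaling and 1502 and 1582 after quantile normalization. Rescaling without mitochondrial, ribosomal and hemoglobin genes gave 1770 higher and 1099 lower. The lower count moved by over 1.5 times without water replicate 1 (472), water replicate 2 (395), trazodone replicate 2 (427) or trazodone replicate 4 (446).

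Calls followed the GC content of the gene. Of 5 equal groups of genes, the lowest in GC content (17.1% to 43.8%) had 1.15% higher and 13.7% lower, and a median log2 fold change of -0.20. The highest (55.5% to 86.2%) had 33.7% higher and 0.246% lower, with a median of 0.33. The slope of log2 TPM per 10 percentage points of GC content was -0.23, -0.19 and -0.16 in the water libraries and 0.07, 0.12, 0.03 and 0.14 in the trazodone libraries, so the groups did not overlap, and it ran from -0.04 to 0.10 in WT libraries. The 3 water libraries thus stood apart from the other 10. Genes of the mitochondrial genome took 13.1% to 15% of TPM with water, 8.96% to 10.7% with trazodone and 9.07% to 12.3% in WT libraries. Since the GC trend separated the groups, it cannot be told apart from the treatment. Class counts, and the values of most named genes, are therefore also given after a loess correction of every library for GC content and transcript length, over 18304 genes. After it, 477 genes were higher (2.61%) and 288 lower (1.57%), 596 genes were called in the same direction with and without the correction, and the median log2 fold change was -0.013. The corrected counts moved by over 1.5 times without water replicate 2 (245 higher and 107 lower), trazodone replicate 1 (283 and 153) and trazodone replicate 2 (249 and 133). Without trazodone replicate 4 the higher count was 268, and the lower count was 141 without water replicate 3 and 159 without trazodone replicate 3.

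**Figure D1:**
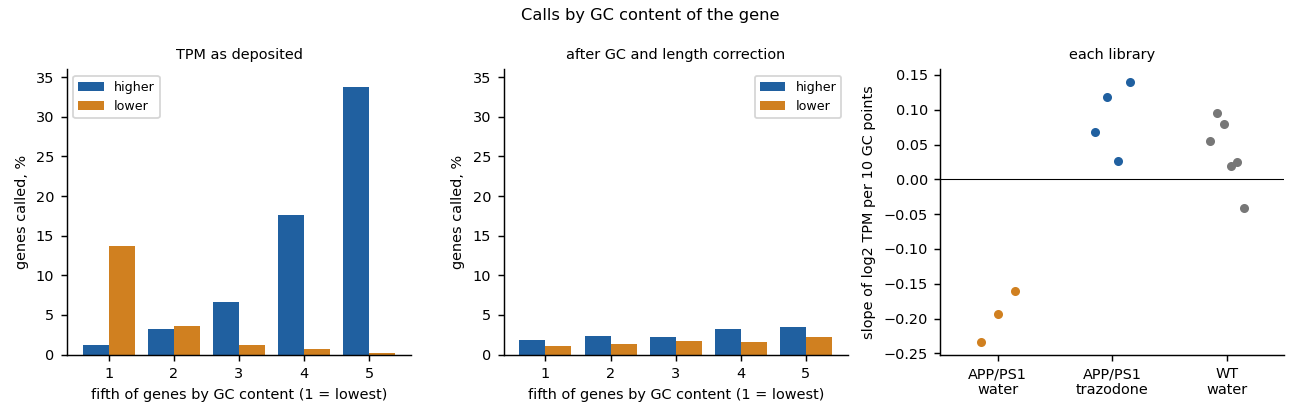
Percentage of genes called higher (blue) and lower (orange) with trazodone, in 5 equal groups of genes by GC content, as deposited (left) and after correction for GC content and length (middle); right, slope of log2 TPM on GC content in each library. As deposited, higher calls ran from 1.15% to 33.7% across the groups, and the 3 water libraries lay below 0 in slope while the 4 trazodone libraries lay above it.

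The largest rise among genes of at least 1 TPM whose groups did not overlap was Atp5k, a small subunit of the membrane part of ATP synthase. Its level was 34.9, 22.4 and 23.1 TPM in the water libraries and 126, 117, 115 and 138 TPM in the trazodone libraries, a log2 fold change of 2.21 ± 0.17 (SE; adjusted p = 2.30e-05). Tmsb10, thymosin beta 10, which binds actin monomers, was measured at 182, 173 and 152 TPM in the water libraries and 590.2, 682, 619 and 727 TPM in the trazodone libraries. It rose by 1.95 ± 0.14 on the log2 scale (adjusted p = 1.25e-05), and every trazodone library lay above 3 times the water mean. Bex3 encodes an adaptor of the p75 neurotrophin receptor and stood at 36, 35.2 and 40.9 TPM in the water libraries and 129, 127, 114 and 126 TPM in the trazodone libraries (log2 fold change 1.72 ± 0.16). Edf1, which senses collided ribosomes and also acts as a transcriptional coactivator, stood at 65.5, 61.7 and 60.7 TPM in the water libraries and 203, 229, 173 and 194 TPM in the trazodone libraries (1.66 ± 0.22). In each of these 4 genes the gap between the groups was wider than the range inside either, and each stayed called after the correction, at 1.98, 1.63, 1.52 and 1.36. WT libraries averaged 107 TPM for Atp5k, 492 for Tmsb10, 109 for Bex3 and 178 for Edf1. The genes lie in GRCm38 at chr5:108433244-108434448 (Atp5k), chr6:72957347-72958748 (Tmsb10), chrX:136270253-136271978 (Bex3) and chr2:25557847-25562082 (Edf1).

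The other 6 of the 10 largest rises by that rule were Atp6v0c, the ring subunit of the vacuolar proton pump (1.68), Cysrt1 (1.56), Mtif3, a mitochondrial translation initiation factor (1.47), Chmp3, an ESCRT-III membrane remodelling subunit (1.49), Hddc3 (1.67) and Stx16, a syntaxin of endosome-to-Golgi transport (1.44). Stx16 stood at 27.3, 23.6 and 15.8 TPM in the water libraries and 79, 78.3, 71.3 and 28.6 TPM in the trazodone libraries, so that trazodone replicate 4 lay close to the water libraries. Atp6v0c was lower in trazodone replicate 1 (493 TPM) than in the other trazodone libraries, which lay between 1087 and 1172 TPM. Corrected values of the 6 ran from 1.29 to 1.52, with Mtif3, Hddc3 and Stx16 not called. With single libraries left out, limma no longer called Chmp3 without water replicate 2 or 3 (adjusted p 0.0519 to 0.0521), Hddc3 without water replicate 3 (adjusted p 0.0701) and Stx16 without water replicate 2 or 3 or trazodone replicate 1, 2 or 3 (adjusted p 0.064 to 0.108). After the correction, limma no longer called Atp6v0c without water replicate 1, 2 or 3 or trazodone replicate 2, 3 or 4 (adjusted p 0.0573 to 0.0842), Cysrt1 without water replicate 2 (adjusted p 0.0504) and Chmp3 without water replicate 1, 2 or 3 or trazodone replicate 1, 2, 3 or 4 (adjusted p 0.0602 to 0.11).

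Among the 10 largest falls by the same rule were 3 transcripts of the mitochondrial genome: mt-Tp and mt-Ty, which encode transfer RNAs for proline and tyrosine (from 719 to 360.2 TPM and from 846 to 415 TPM), and mt-Nd6, a complex I subunit (-0.93). Pkib, an inhibitor of protein kinase A, was measured at 7.15, 7.82 and 6.88 TPM in the water libraries and 3.5, 3.4, 2.6 and 2.57 TPM in the trazodone libraries and fell by 1.15 ± 0.15 (SE) on the log2 scale (adjusted p = 4.53e-04; -0.92 after the correction). The highest trazodone value was below every water value, which the rule for this list required. Snhg6, a host transcript of small nucleolar RNAs, fell from 73.8 to 33 TPM (-1.10), and Usf3, a transcription factor gene, from 11.4 to 3.6 TPM (-1.56). Rbm12b1, Vma21, an assembly factor of the vacuolar proton pump, Insl5 and Upk1b completed the list, with log2 fold changes of -1.88, -1.59, -0.97 and -0.95. Vma21 stood at 56, 49.1 and 52.2 TPM in the water libraries and 14.1, 13.6, 41.1 and 10.5 TPM in the trazodone libraries, with trazodone replicate 3 near the water values. Among deposited values, limma no longer called Rbm12b1 without water replicate 1, 2 or 3 or trazodone replicate 1, 3 or 4 (adjusted p 0.0601 to 0.105), Vma21 without water replicate 1, 2 or 3 or trazodone replicate 1, 2 or 4 (adjusted p 0.1 to 0.116), Insl5 without water replicate 3 (adjusted p 0.0574) and Upk1b without water replicate 1 or 2 or trazodone replicate 1, 2 or 3 (adjusted p 0.0752 to 0.138). Of the 10, limma called Usf3, Pkib, Snhg6, Insl5 and mt-Tp lower after the correction as well. Corrected calls ended for Usf3 without water replicate 1, 2 or 3 or trazodone replicate 1, 2 or 4 (adjusted p 0.0545 to 0.11), Snhg6 without water replicate 2 or 3 or trazodone replicate 1, 2, 3 or 4 (adjusted p 0.0604 to 0.128) and Insl5 without water replicate 2 or 3 or trazodone replicate 1 or 3 (adjusted p 0.0612 to 0.0986).

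**Figure D2:**
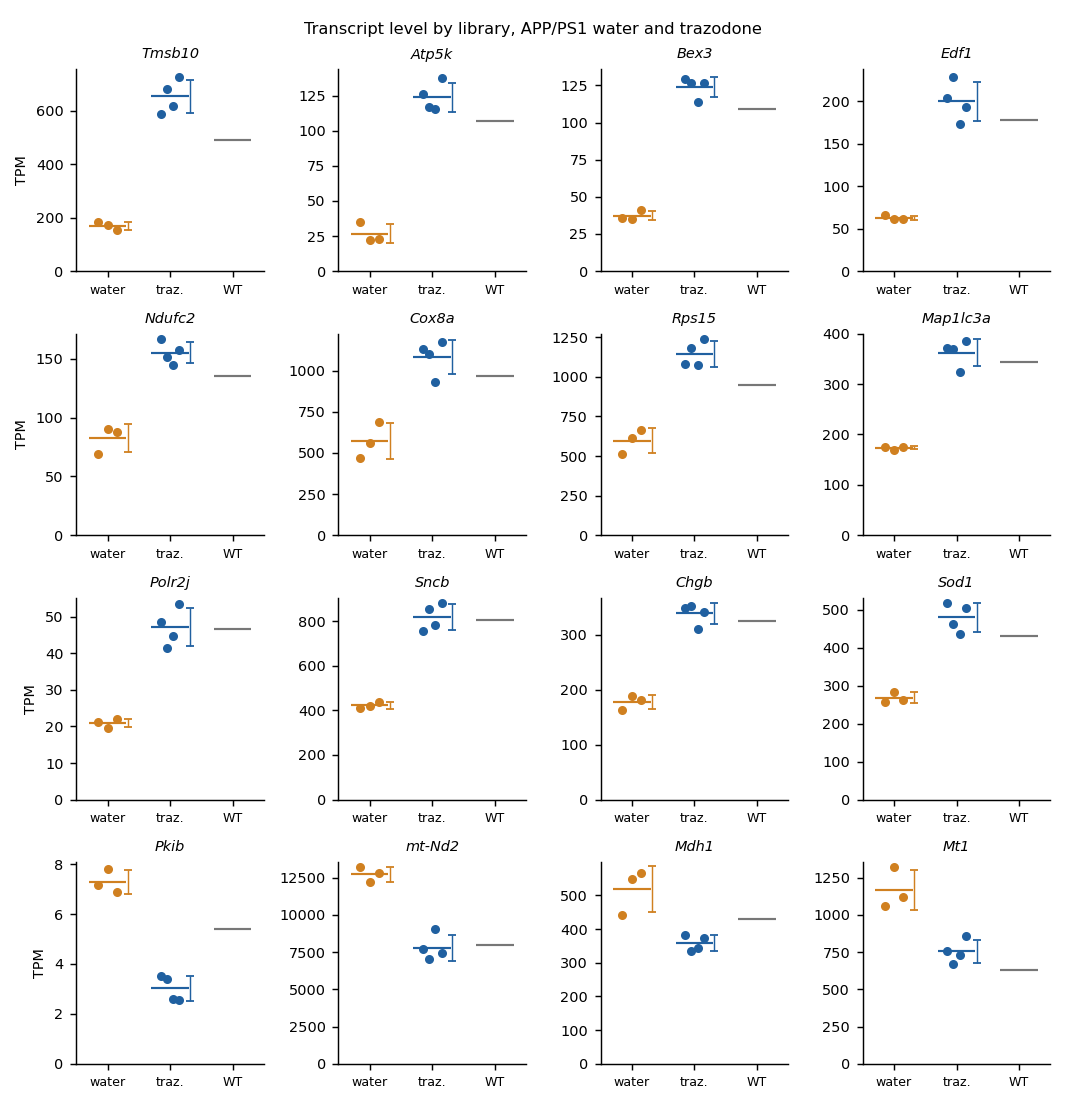
TPM of 16 genes in each APP/PS1 library given water (orange) or trazodone (blue); lines are means, bars are SD (n = 3 and n = 4), and the grey line is the WT mean (n = 6). In each panel no trazodone library overlaps a water library; Pkib, mt-Nd2, Mdh1 and Mt1 are lower with trazodone and the others higher.

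To describe the effect by function, 1508 genes were placed in 61 classes, of which 1442 were tested, 32 lay below the minimum and 34 had no entry. The classes were chosen with earlier results of these data known, so their counts are descriptions and no class was tested. Class counts below are read against the share of all genes called, 12.5% higher and 3.92% lower as deposited and 2.61% and 1.57% after the correction, and class medians against the medians of all genes, 0.07 and -0.013. Log2 fold changes are given ± SE, and where a gene has 2 log2 fold changes the second is after the correction. Where groups are said not to overlap, this describes the named genes only, since the share of all genes that did so is not given. Because the GC trend also separated the groups, non-overlap of deposited values alone cannot tell the treatment from that trend. In bulk tissue, fewer cells of a type and less RNA per cell cannot be told apart.

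**Figure D3:**
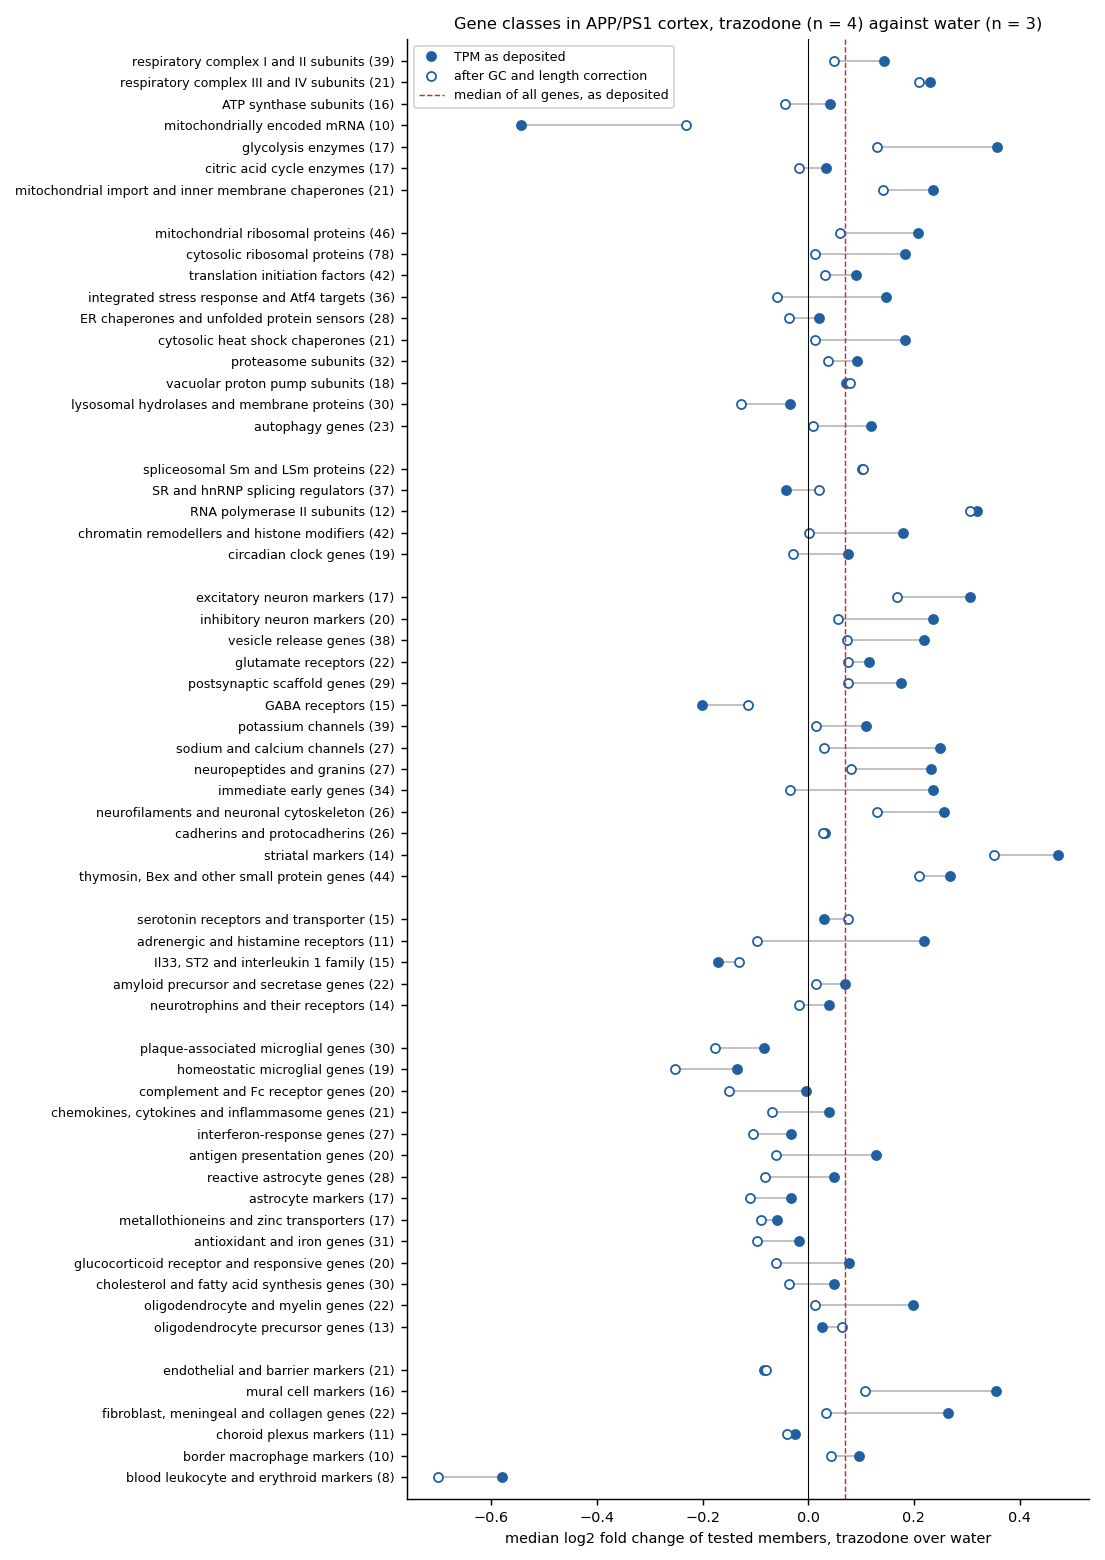
Median log2 fold change (trazodone over water) of the tested members of 61 gene classes, with the number of members in brackets; filled points are TPM as deposited, open points are after correction for GC content and length, and the dashed line is the median of all genes as deposited (0.07). RNA polymerase II subunits and complex III and IV subunits keep their medians after the correction, whereas adrenergic and histamine receptors and immediate early genes move below 0.

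The respiratory chain passes electrons through complexes I to IV to drive ATP synthase, and its nuclear-encoded subunits were called higher more often than lower. Of 39 complex I and II subunits, 14 rose and 1 fell (median 0.14). Of 21 complex III and IV subunits, 8 rose and the others did not pass the test (median 0.23). ATP synthase had 5 members higher and 2 lower of 16 (median 0.04). After the correction the counts were 8 higher and 2 lower, 7 higher and 1 lower and 3 higher and 1 lower, against 2.61% and 1.57% of all genes. The deposited values gave 12 to 15, 7 to 9 and 5 members higher in the 3 classes with single libraries left out. Ndufc2, a membrane-arm subunit of complex I, was measured at 69.4, 90.8 and 88.1 TPM in the water libraries and 167, 152, 145 and 158 TPM in the trazodone libraries. It rose by 0.91 ± 0.10 (adjusted p = 1.52e-04) and by 0.85 after the correction. Ndufa12 (from 57.9 to 110.4 TPM) and Ndufb10 (from 121 to 231 TPM), both accessory subunits of complex I, rose by 0.93 and 0.93 (0.78 and 0.74 after the correction), and the groups did not overlap in either gene. In complex IV, Cox8a stood at 467, 563 and 689 TPM in the water libraries and 1130, 1101, 933 and 1171 TPM in the trazodone libraries and Cox6b1 at 262, 292 and 281 TPM in the water libraries and 468, 434, 444 and 521 TPM in the trazodone libraries, rises of 0.93 ± 0.12 and 0.74 ± 0.08 (0.62 and 0.63 after the correction). Uqcr11, a small subunit of complex III, rose from 92.8 ± 25.8 TPM (SD, n = 3) to 224 ± 23.6 TPM (n = 4), with the most spread among the water libraries (65, 97.2 and 116 TPM). Atp5g3, a gene for the ring subunit of ATP synthase, rose by 0.73 (0.65), while Atp5md, a further membrane subunit, fell from 798 to 581 TPM (-0.46). The corrected fit no longer called Ndufb10 without water replicate 1 or 2 (adjusted p 0.0584 to 0.0606) and Uqcr11 without water replicate 1 (adjusted p 0.0502). Corrected counts that moved by over 1.5 times without a library were those of respiratory complex I and II subunits called higher (4 without water replicate 1, 5 without water replicate 2) and respiratory complex III and IV subunits called higher (3 without water replicate 1, 4 without water replicate 2 or trazodone replicate 1 or 4).

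Of the 10 tested mRNAs of the mitochondrial genome, 6 fell and the others did not pass the test, with a median of -0.54. Their summed level was 108200 to 127500 TPM with water and 76370 to 89340 TPM with trazodone. The 2 ranges did not overlap. Among them, mt-Nd2, a core complex I subunit, was measured at 13180, 12180 and 12810 TPM in the water libraries and 7717, 7009, 9035 and 7442 TPM in the trazodone libraries (-0.71 ± 0.12, adjusted p = 0.00211), and mt-Co1, the catalytic subunit of complex IV, at 37940, 33470 and 31530 TPM in the water libraries and 24030, 24290, 26110 and 25750 TPM in the trazodone libraries (-0.45 ± 0.14). WT libraries averaged 7969 TPM for mt-Nd2 and 26580 TPM for mt-Co1. After the GC and length correction limma called 0 of the 10 at adjusted p under 0.05, 3 had an unadjusted p under 0.05, and the median was -0.23. Under quantile normalization the median was -0.02, and mt-Nd2 was higher by 0.09. As deposited, the call was lost for mt-Co1 without water replicate 1, 2 or 3 or trazodone replicate 1, 2, 3 or 4 (adjusted p 0.0621 to 0.143). The entry of mt-Co1 may hold reads of its neighbours mt-Atp6 and mt-Co3, genes without their own entries. Other scalings moved by over 1.5 times the count of mitochondrially encoded mRNA called lower (1 after quantile normalization).

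Glycolysis, which breaks glucose down to pyruvate in the cytosol, had 12 of 17 enzymes higher, and the others did not pass the test (median 0.36). Hk1, the main brain hexokinase, stood at 114, 106 and 102 TPM in the water libraries and 162, 252, 239.8 and 260.4 TPM in the trazodone libraries (1.06 ± 0.20). Trazodone replicate 1 was the lowest of its group and still lay above the water libraries. Aldoa (aldolase) and Pkm (pyruvate kinase) rose from 1456 to 1942 TPM and from 1050 to 1313 TPM, by 0.42 and 0.32. Leaving out single libraries gave 7 to 12 enzymes higher. After the correction 1 enzyme, Hk1, was called, the median was 0.13, and Aldoa and Pkm had log2 fold changes of 0.13 and 0.01. In the corrected values, the call ended for Hk1 without water replicate 1, 2 or 3 or trazodone replicate 2, 3 or 4 (adjusted p 0.0883 to 0.12). In the list of citric acid cycle enzymes, 1 rose and 3 of 17 fell (median 0.03). The clearest was Mdh1, which encodes the cytosolic malate dehydrogenase and not the mitochondrial enzyme of the cycle. Mdh1 stood at 441, 549 and 567 TPM in the water libraries and 382, 336, 343 and 373 TPM in the trazodone libraries (-0.53 ± 0.11, and -0.50 after the correction). On corrected values, limma no longer called Mdh1 without water replicate 2 or 3 or trazodone replicate 2 or 3 (adjusted p 0.0574 to 0.0928). By limma after the correction, members called were 0 higher and 2 lower for citric acid cycle enzymes. With a library left out, the count moved by over 1.5 times for glycolysis enzymes called higher (7 without water replicate 1) and citric acid cycle enzymes called lower (1 without water replicate 3). Under other scalings, the count moved by over 1.5 times for glycolysis enzymes called higher (6 after quantile normalization, 7 after median-ratio scaling). Citric acid cycle enzymes called lower also moved (5 on FPKM, after median-ratio scaling and after rescaling, 7 after quantile normalization).

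Mitochondrial import and inner membrane chaperones, which carry proteins from the cytosol into the organelle, had 9 of 21 members higher (4 to 9 with single libraries left out) and a median of 0.24. Timm13, a chaperone of the intermembrane space, rose from 36.1 ± 6 TPM (SD, n = 3) to 79.2 ± 8.78 TPM (n = 4), by 1.13 as deposited and 0.81 after the correction, where 2 members were higher. Among 46 mitochondrial ribosomal proteins, 15 rose (median 0.21) and 6 did so after the correction. Mrps12 stood at 38.5, 33.4 and 48.5 TPM in the water libraries and 95.3, 87.2, 67.5 and 97.8 TPM in the trazodone libraries (1.11 ± 0.16), and Mrpl42 rose by 0.62 and, corrected, by 0.72. Both genes separated the groups, with Mrps12 lowest in trazodone replicate 3. Once corrected, the call was lost for Timm13 without water replicate 1 or 2 or trazodone replicate 1 (adjusted p 0.0596 to 0.0839). Left-out libraries moved by over 1.5 times the count of mitochondrial import and inner membrane chaperones called higher (4 without water replicate 1). The corrected count moved by over 1.5 times for mitochondrial ribosomal proteins called higher (2 without water replicate 1 or trazodone replicate 2 or 3, 3 without trazodone replicate 1 or 4). Scaling moved by over 1.5 times the count of mitochondrial import and inner membrane chaperones called higher (4 after median-ratio scaling and after quantile normalization).

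Cytosolic ribosomal protein genes moved both ways. Of 78 tested, 20 rose and 11 fell (median 0.18), and after the correction 11 rose and 11 fell. Quantile normalization turned the balance to 14 higher and 21 lower, and with single libraries left out 14 to 25 were higher and 5 to 15 lower. Rps15 was measured at 515, 612 and 667 TPM in the water libraries and 1082, 1182, 1072 and 1237 TPM in the trazodone libraries (0.94 ± 0.10) and Rpl28 at 193, 202 and 185 TPM in the water libraries and 382, 372, 365 and 426 TPM in the trazodone libraries (0.99 ± 0.12). Rpl35 and Rps28 rose by 0.94 and 0.82, and each of these 4 stayed called after the correction. Rps21, Rps27 and Rps6, chosen after their values were seen, fell by 0.65, 0.56 and 0.43 on the log2 scale, and their corrected values were -0.76, -0.79 and -0.76. Rps6, the ribosomal protein phosphorylated downstream of mTOR, stood at 538, 688 and 651 TPM in the water libraries and 491, 443, 413 and 509 TPM in the trazodone libraries. Deposited values lost their call for Rps21 without water replicate 2 or 3 or trazodone replicate 1 or 3 (adjusted p 0.0671 to 0.119) and Rps27 without water replicate 2 (adjusted p 0.0656). After the correction, limma no longer called Rps21 without water replicate 2 or 3 or trazodone replicate 1, 2 or 3 (adjusted p 0.0764 to 0.145). Ribosomal protein genes have many processed copies, and the split of reads among them is uncertain. A left-out library gave over 1.5 times more or fewer of cytosolic ribosomal proteins called lower (5 without water replicate 2 or trazodone replicate 3, 6 without trazodone replicate 1 or 2, 7 without water replicate 3). After the correction, a left-out library moved by over 1.5 times the count of cytosolic ribosomal proteins called lower (5 without water replicate 2 or 3 or trazodone replicate 2, 6 without trazodone replicate 1 or 3, 17 without water replicate 1).

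The initiation factors, which bring the ribosome to the mRNA and are the point at which the integrated stress response acts, had 10 of 42 members higher and 3 lower (median 0.09), and 2 higher and 1 lower after the correction. Under quantile normalization the counts were 5 higher and 8 lower. Eif4h, a cofactor of the helicase eIF4A, was measured at 272, 137 and 139.6 TPM in the water libraries and 382, 354, 323 and 344 TPM in the trazodone libraries and rose by 1.01 ± 0.19, with water replicate 1 well above the other water libraries. Eif3b, a scaffold subunit of eIF3, rose from 66.6 to 88.5 TPM (0.41), while Eif3e, another eIF3 subunit, fell from 97.5 to 70.9 TPM (-0.46). Neither of these passed the test after the correction, at 0.15 and -0.14. Corrected calls ended for Eif4h without water replicate 2 or 3 or trazodone replicate 1, 2, 3 or 4 (adjusted p 0.0655 to 0.151). Other scalings moved by over 1.5 times the count of translation initiation factors called higher (5 after quantile normalization, 6 after median-ratio scaling). Those called lower also moved (6 on FPKM and after median-ratio scaling, 7 after rescaling, 8 after quantile normalization).

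In the integrated stress response, phosphorylated eIF2-alpha raises Atf4. Of 36 tested genes of this pathway, 5 rose and the others did not pass the test (median 0.15). The share higher, 13.9%, was near the 12.5% of all genes. After the correction 1 was higher and 1 lower, against 2.61% and 1.57% of all genes, and the median was -0.06. Quantile normalization gave 2 higher and 3 lower, and 3 to 5 were higher with single libraries left out. Atf4, its central transcription factor, was measured at 129, 127 and 72.8 TPM in the water libraries and 218, 95.6, 86.3 and 114 TPM in the trazodone libraries, with overlapping groups and a log2 fold change of 0.17 ± 0.32 (adjusted p = 0.772). Eif2ak3 (PERK), the ER kinase of eIF2-alpha, was at 17.8, 16.9 and 16.7 TPM in the water libraries and 20.6, 21, 20.1 and 18.9 TPM in the trazodone libraries (adjusted p = 0.0766). Ppp1r15a (GADD34), the stress-induced phosphatase subunit that reverses the phosphorylation, was at 8.99, 9.06 and 9.08 TPM in the water libraries and 7.87, 12.7, 10.6 and 11.9 TPM in the trazodone libraries (adjusted p = 0.365). Eif2ak3 was higher in each trazodone library, Ppp1r15a in 3 of 4, and neither passed the test. Ddit3 (CHOP), a proapoptotic Atf4 target, stood at 53.5, 53.2 and 51.5 TPM in the water libraries and 67.7, 59.1, 60.4 and 66.4 TPM in the trazodone libraries, a rise of 0.26 ± 0.07 (adjusted p = 0.0192; 0.28 after the correction). Slc3a2, the heavy chain of an amino acid exchanger, and Ddit4 (REDD1), an mTOR inhibitor, rose from 116 to 167 TPM and from 31.4 to 46.3 TPM, and neither passed after the correction. With single libraries left out, limma no longer called Ddit3 without water replicate 2 or 3 or trazodone replicate 1 (adjusted p 0.0526 to 0.058). The corrected fit no longer called Ddit3 without water replicate 1, 2 or 3 or trazodone replicate 1, 3 or 4 (adjusted p 0.0652 to 0.125). Counts that moved by over 1.5 times without a library were those of integrated stress response and Atf4 targets called higher (3 without water replicate 2 or 3 or trazodone replicate 1). Under other scalings, the count moved by over 1.5 times for integrated stress response and Atf4 targets called higher (2 after quantile normalization, 3 on FPKM, after median-ratio scaling and after rescaling).

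ER chaperones and sensors of the unfolded protein response split into 2 higher and 5 lower of 28 (median 0.02), and 0 higher and 2 lower after the correction. Xbp1, the transcription factor activated by splicing in that response, was measured at 72.5, 92.8 and 99.5 TPM in the water libraries and 68.2, 65.5, 69.1 and 66.4 TPM in the trazodone libraries and fell by 0.38 ± 0.09 on the log2 scale. The trazodone libraries lay within 65.5 to 69.1 TPM, below each water library. Dnajb9, an ER co-chaperone and Xbp1 target, fell from 62.7 ± 2.71 TPM (SD, n = 3) to 45.9 ± 1.27 TPM (n = 4) (-0.45 ± 0.06, adjusted p = 6.56e-04). Corrected values were -0.56 ± 0.09 and -0.27 ± 0.07, both called. Among deposited values, limma no longer called Xbp1 without water replicate 2 or 3 (adjusted p 0.0521 to 0.0548). In the corrected values, the call ended for Dnajb9 without water replicate 2 or 3 or trazodone replicate 1, 2, 3 or 4 (adjusted p 0.064 to 0.126). In the class as deposited, single libraries left out gave 1 to 4 members lower. With a library left out, the count moved by over 1.5 times for ER chaperones and unfolded protein sensors called lower (1 without water replicate 2, 2 without water replicate 1 or 3 or trazodone replicate 1, 2 or 4). Scaling moved by over 1.5 times the count of ER chaperones and unfolded protein sensors called lower (8 after quantile normalization).

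Cytosolic heat shock chaperones, which fold client proteins with Hsp70 and Hsp90, had 5 of 21 members higher (median 0.18; 3 to 5 with single libraries left out). Hspa1a, the inducible Hsp70, stood at 8.95, 8.87 and 9.55 TPM in the water libraries and 14.4, 15, 15.3 and 14.7 TPM in the trazodone libraries (0.67 ± 0.10), and Stip1, which links Hsp70 to Hsp90, rose from 124 to 184 TPM (0.57). Stip1 was the member called after the correction (0.43), where Hspa1a was at 0.32. On corrected values, limma no longer called Stip1 without water replicate 3 (adjusted p 0.0568). Quantile normalization gave 4 heat shock chaperones higher and 4 lower. Proteasome subunits numbered 8 higher and 3 lower of 32 (median 0.09), a balance that turned under each of the 4 other scalings (4 higher and 5 to 8 lower). The regulatory subunits Adrm1 and Psmc1 rose by 0.70 and 0.58, and the catalytic-core subunit Psmb7 by 0.47; corrected values were 0.44, 0.50 and 0.64. Once corrected, the call was lost for Adrm1 without water replicate 1 or 2 or trazodone replicate 1 or 4 (adjusted p 0.0702 to 0.0959) and Psmc1 without water replicate 1 or 3 or trazodone replicate 1 or 4 (adjusted p 0.052 to 0.0685). Subunits called higher numbered 4 to 6 with single libraries left out. Corrected for GC and length, limma counts were 3 higher and 1 lower for proteasome subunits. Left-out libraries moved by over 1.5 times the count of cytosolic heat shock chaperones called higher (3 without water replicate 1), proteasome subunits called higher (4 without water replicate 1 or trazodone replicate 4, 5 without water replicate 2 or 3) and proteasome subunits called lower (5 without water replicate 1).

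The vacuolar proton pump, which acidifies lysosomes and synaptic vesicles, had 5 of 18 subunits higher and 2 lower (median 0.07), with quantile normalization giving 4 higher and 5 lower and rescaling without mitochondrial, ribosomal and hemoglobin genes 4 higher and 5 lower. Atp6v1f stood at 138, 152 and 183 TPM in the water libraries and 257, 254, 228 and 261 TPM in the trazodone libraries (0.67 ± 0.11; 0.49), and Atp6v0e fell from 85.5 ± 6.11 TPM (SD, n = 3) to 61.9 ± 1.21 TPM (n = 4) (-0.46, -0.41 after the correction). Lysosomal hydrolases and membrane proteins included 5 lower and 1 higher of 30 (median -0.03), and 0 higher and 5 lower after the correction, against 1.57% of all genes. Laptm4a and Lamp1, membrane proteins of the lysosome, fell from 329 to 266 TPM and from 461 to 404 TPM, by 0.31 and 0.19 on the log2 scale and by 0.37 and 0.33 after the correction. Lamp2, the receptor of chaperone-mediated autophagy, stood at 151, 142 and 143 TPM in the water libraries and 112, 103, 108 and 108 TPM in the trazodone libraries (-0.43 ± 0.07; -0.19 after the correction, not called). Laptm5, a lysosomal protein of immune cells, fell by 0.44, although its groups overlapped. Lysosomal members called lower numbered 2 to 6 with single libraries left out. As deposited, the call was lost for Lamp1 without water replicate 1 or 2 or trazodone replicate 2 (adjusted p 0.0677 to 0.0774) and Laptm5 without water replicate 1 or 2 or trazodone replicate 1 or 2 (adjusted p 0.0851 to 0.146). After the correction, limma no longer called Atp6v1f without water replicate 1 or 2 (adjusted p 0.0512 to 0.0596), Laptm5 without water replicate 1 or 2 (adjusted p 0.0503 to 0.0643) and Atp6v0c without water replicate 1, 2 or 3 or trazodone replicate 2, 3 or 4 (adjusted p 0.0573 to 0.0842). The limma counts on corrected values were 3 higher and 2 lower for vacuolar proton pump subunits. A left-out library gave over 1.5 times more or fewer of lysosomal hydrolases and membrane proteins called lower (2 without water replicate 1 or 2 or trazodone replicate 2, 3 without trazodone replicate 1). Corrected counts that moved by over 1.5 times without a library were those of lysosomal hydrolases and membrane proteins called lower (2 without water replicate 2, 3 without water replicate 1).

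Among 23 autophagy genes, 5 rose and 2 fell (median 0.12), with 3 higher and 4 lower after median-ratio scaling and 2 higher and 4 lower after quantile normalization. Map1lc3a, which encodes the autophagosome protein LC3A, was measured at 176, 169.8 and 174 TPM in the water libraries and 372, 369.5, 323 and 384 TPM in the trazodone libraries. It rose by 1.06 ± 0.09 (adjusted p = 4.04e-05) and by 0.59 ± 0.07 after the correction, and was the member called there; WT libraries averaged 344 TPM.

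RNA polymerase II, the enzyme that transcribes mRNA genes, had 6 of 12 subunits higher and the others not past the test, with a median of 0.32 as deposited and 0.31 after the correction, where 4 were higher. The count was 6 with each library left out in turn and also under each of the 4 other scalings. Polr2j, a small subunit, stood at 21.3, 19.6 and 21.9 TPM in the water libraries and 48.7, 41.5, 44.8 and 53.5 TPM in the trazodone libraries. Polr2l, another, stood at 12.7, 14.3 and 14.8 TPM in the water libraries and 34.2, 29.1, 31.5 and 35 TPM in the trazodone libraries. They rose by 1.15 ± 0.10 and 1.19 ± 0.17. Polr2e, a subunit shared by the nuclear polymerases, and Polr2g, of the stalk, rose by 0.87 and 0.41, with corrected values of 0.59 and 0.34. Corrected calls ended for Polr2g without water replicate 1 or 2 or trazodone replicate 4 (adjusted p 0.052 to 0.0859).

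Spliceosomal Sm and LSm proteins, which coat small nuclear RNAs, had 5 of 22 members higher (median 0.10). Snrpd2, an Sm core protein, was measured at 30.1, 29.1 and 29.4 TPM in the water libraries and 71, 67, 64.8 and 72.3 TPM in the trazodone libraries, a rise of 1.21 ± 0.10 (adjusted p = 3.51e-05; 1.04 after the correction). Sf3b5, a subunit of the branch-site complex, rose from 12.9 to 24.4 TPM (0.89; 0.93). The splicing regulators of the SR and hnRNP families moved both ways, with 8 higher and 4 lower of 37 as deposited and 5 to 6 higher and 8 to 13 lower under the other scalings. After the correction they were 5 higher and 2 lower. Those called lower numbered 1 to 4 with single libraries left out. Srsf5 rose from 173 to 241 TPM (0.48; 0.67) and Hnrnpf, chosen after its values were seen, from 39.1 to 72.1 TPM (0.92; 0.85), whereas Rbm39 fell from 304 to 227 TPM (-0.42; -0.32). Rbfox3, the neuronal splicing factor known as NeuN, rose from 137 ± 2.71 TPM (SD, n = 3) to 211 ± 9.33 TPM (n = 4) (0.62; 0.28). The corrected fit no longer called Hnrnpf without water replicate 2 or 3 or trazodone replicate 1, 2, 3 or 4 (adjusted p 0.0671 to 0.147) and Rbfox3 without water replicate 1, 2 or 3 or trazodone replicate 1, 2, 3 or 4 (adjusted p 0.0544 to 0.0981). Of 42 chromatin remodellers and histone modifiers, 8 rose and 1, Chd4, did so after the correction. Chd4, the ATPase of the NuRD complex, and Hdac5, a histone deacetylase, rose by 0.44 and 0.59, with corrected values of 0.25 and 0.19. In the corrected values, the call ended for Chd4 without water replicate 1 or 2 or trazodone replicate 2, 3 or 4 (adjusted p 0.0638 to 0.12). By limma after the correction, members called were 2 higher and 0 lower for spliceosomal Sm and LSm proteins. Counts that moved by over 1.5 times without a library were those of SR and hnRNP splicing regulators called lower (1 without water replicate 2, 2 without trazodone replicate 2). The corrected count moved by over 1.5 times for SR and hnRNP splicing regulators called higher (1 without water replicate 2 or trazodone replicate 2, 3 or 4, 2 without water replicate 1 or 3 or trazodone replicate 1). Other scalings moved by over 1.5 times the count of SR and hnRNP splicing regulators called higher (5 after quantile normalization) and SR and hnRNP splicing regulators called lower (8 after rescaling, 9 on FPKM, 10 after median-ratio scaling, 13 after quantile normalization).

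Of 19 clock genes, which form feedback loops timed by Clock and Bmal1 at E-box sequences, 4 rose and the others did not pass the test, against 12.5% of all genes (median 0.08). Ciart, a repressor of Clock and Bmal1, was measured at 7.91, 8.98 and 6.87 TPM in the water libraries and 13.8, 21.1, 23.6 and 13.6 TPM in the trazodone libraries (1.10 ± 0.21, adjusted p = 0.00334; 0.94 after the correction). Trazodone replicates 2 and 3 were the highest. Dbp, a clock output transcription factor, stood at 48.8, 63.6 and 63.8 TPM in the water libraries and 76.9, 108, 154 and 122 TPM in the trazodone libraries (0.93 ± 0.22; 0.51 after the correction, not called). The hour at which the mice were killed is not stated in the labels. On corrected values, limma no longer called Ciart without water replicate 1, 2 or 3 or trazodone replicate 2 or 3 (adjusted p 0.0581 to 0.0964). The promoter of Ciart, 250 bases before to 50 after its start (RefSeq, GRCm38.p6, chr3:95882179-95882478, minus strand), is shown because it holds 3 copies of the E-box CACGTG, in capitals. Both strands were searched, and CACGTG reads the same on each; 7.15% of 32851 mouse promoters of the same length held at least 1 copy. Corrected for GC and length, limma counts were 1 higher and 1 lower for circadian clock genes.
Ciart promoter: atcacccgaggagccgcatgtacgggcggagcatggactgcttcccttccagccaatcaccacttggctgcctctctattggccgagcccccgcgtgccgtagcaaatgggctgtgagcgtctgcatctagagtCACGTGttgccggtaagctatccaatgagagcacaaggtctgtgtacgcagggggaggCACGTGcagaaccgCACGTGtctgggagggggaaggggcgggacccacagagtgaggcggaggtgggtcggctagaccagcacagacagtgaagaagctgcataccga

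Neuronal genes were called higher in many classes, and fewer of them after the GC and length correction. Excitatory neuron markers had 8 of 17 higher (median 0.31). Inhibitory neuron markers had 3 of 20 higher (median 0.24), or 15%, near the 12.5% of all genes. Against 2.61% of all genes after the correction, 1 marker of each list was called higher. Their mean log2(TPM + 0.5) was 5.92 ± 0.02 (SD, n = 3) with water and 6.23 ± 0.04 (n = 4) with trazodone for excitatory markers, and 5.33 ± 0.08 (SD, n = 3) with water and 5.60 ± 0.08 (n = 4) with trazodone for inhibitory ones. Emx1, a transcription factor of cortical projection neurons, was measured at 10.4, 12.3 and 13.4 TPM in the water libraries and 31.4, 30.2, 24.5 and 29.3 TPM in the trazodone libraries (1.23 ± 0.19; 0.64 after the correction). Neurod2 and Nrgn (neurogranin) rose by 0.57 and 0.83 and did not pass after it. Cck, the cholecystokinin peptide of interneurons and some projection neurons, stood at 394, 423 and 469 TPM in the water libraries and 842, 808, 682 and 908 TPM in the trazodone libraries (0.91 ± 0.14; 0.64). Excitatory markers called higher numbered 3 to 6 with single libraries left out. Once corrected, the call was lost for Emx1 without water replicate 1, 2 or 3 or trazodone replicate 1, 2, 3 or 4 (adjusted p 0.0543 to 0.112). Striatal markers, a check on the dissection, had 1 of 14 higher, Ppp1r1b (DARPP-32), at 81.1, 115 and 81.9 TPM in the water libraries and 256, 158, 240.1 and 139 TPM in the trazodone libraries. Their mean log2(TPM + 0.5) was 4.57 ± 0.36 (SD, n = 3) with water and 5.08 ± 0.54 (n = 4) with trazodone, so striatal tissue may differ between libraries, and the part of striatal tissue in the other neuronal classes was not tested. Deposited values lost their call for Ppp1r1b without water replicate 1 or 3 or trazodone replicate 1 or 3 (adjusted p 0.052 to 0.0714). The limma counts on corrected values were 0 in either direction (1 at an unadjusted p under 0.05) for striatal markers. With a library left out, the count moved by over 1.5 times for excitatory neuron markers called higher (3 without water replicate 2, 5 without trazodone replicate 1, 2 or 4) and inhibitory neuron markers called higher (1 without water replicate 3). Under other scalings, the count moved by over 1.5 times for excitatory neuron markers called higher (4 after median-ratio scaling and after quantile normalization, 5 on FPKM and after rescaling).

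Presynaptic genes for vesicle release had 17 of 38 members higher and 1 lower (median 0.22), and 4 higher and 1 lower after the correction. Sncb, beta-synuclein, was measured at 410.4, 419 and 439.6 TPM in the water libraries and 757, 854, 785 and 881 TPM in the trazodone libraries, and the groups were separated by more than the range inside either group. It rose by 0.95 ± 0.09 (adjusted p = 5.92e-05; 0.54 after the correction). Nrxn2, a neurexin that binds postsynaptic neuroligins, stood at 138, 120.4 and 107 TPM in the water libraries and 249, 256, 234 and 258 TPM in the trazodone libraries (1.03 ± 0.10; 0.55), and Syp, the vesicle protein synaptophysin, at 657, 759.7 and 773 TPM in the water libraries and 1248, 1175, 1127 and 1151 TPM in the trazodone libraries (0.69 ± 0.13; 0.73). Leaving out single libraries gave 11 to 16 members higher. On the postsynaptic side, 12 of 29 scaffold genes rose (median 0.18), and 4 higher and 1 lower were called after the correction. Dlg4 (PSD-95), the main scaffold of excitatory synapses, was at 336, 321 and 346 TPM in the water libraries and 544, 514, 516 and 482 TPM in the trazodone libraries (0.62 ± 0.11; 0.63). Nlgn2, the neuroligin of inhibitory synapses, Shank1, and Cacng8, an AMPA receptor auxiliary subunit, rose by 0.78, 0.77 and 0.94, with corrected values of 0.35, 0.32 and 0.41. The groups did not overlap in any of these 4. Of the 29 scaffold genes, 11 had groups that did not overlap with trazodone higher, and 0 with trazodone lower. After the correction, limma no longer called Syp without water replicate 1 (adjusted p 0.0518), Dlg4 without water replicate 2 (adjusted p 0.0564), Nlgn2 without water replicate 3 (adjusted p 0.0685), Shank1 without water replicate 2 or 3 or trazodone replicate 1 or 3 (adjusted p 0.0709 to 0.103) and Cacng8 without water replicate 2 or 3 or trazodone replicate 1, 2, 3 or 4 (adjusted p 0.0544 to 0.111). Left-out libraries moved by over 1.5 times the count of vesicle release genes called higher (11 without water replicate 2 or 3 or trazodone replicate 1 or 2). After the correction, a left-out library moved by over 1.5 times the count of postsynaptic scaffold genes called higher (1 without water replicate 2 or 3, 2 without trazodone replicate 1 or 3). Scaling moved by over 1.5 times the count of vesicle release genes called higher (8 after quantile normalization).

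Receptor and channel genes moved less evenly. Glutamate receptors had 6 of 22 higher and 2 lower (median 0.12). Grin2d, an NMDA receptor subunit, rose from 7.98 to 15.6 TPM (0.92; 0.36 after the correction), and Gria3, an AMPA receptor subunit, fell from 162 to 127 TPM (-0.35; -0.13). GABA receptors had 2 higher and 4 lower of 15 (median -0.20). The metabotropic Gabbr1 stood at 350.1, 324 and 309.8 TPM in the water libraries and 499.7, 472, 464 and 442 TPM in the trazodone libraries (0.52 ± 0.08; 0.33). The 4 members lower were channel subunits and the 2 higher were the metabotropic pair Gabbr1 and Gabbr2; after the correction Gabbr1 was the member called. Potassium channels had 8 of 39 higher and 1 lower, and sodium and calcium channels 7 of 27 higher, with 1 higher in each list after the correction. Kcnj4, an inward rectifier, rose by 0.54 (0.18). Counts higher were 3 to 6 for glutamate receptors and 4 to 7 for sodium and calcium channels with single libraries left out, and 1 to 3 GABA receptors were lower. Cadherins and protocadherins, adhesion proteins of synapses, gave 2 higher and 2 lower of 26 (median 0.03). Corrected calls ended for Gabbr1 without water replicate 1, 2 or 3 or trazodone replicate 1, 2 or 4 (adjusted p 0.05 to 0.0812) and Kcnj4 without water replicate 1 or 2 or trazodone replicate 1, 2, 3 or 4 (adjusted p 0.0541 to 0.114). By limma after the correction, members called were 0 higher and 1 lower for glutamate receptors, 1 higher and 0 lower for GABA receptors and sodium and calcium channels, 0 in either direction (4 at an unadjusted p under 0.05) for cadherins and protocadherins. A left-out library gave over 1.5 times more or fewer of glutamate receptors called higher (3 without water replicate 3 or trazodone replicate 1 or 2), GABA receptors called lower (1 without trazodone replicate 2, 2 without water replicate 1, 2 or 3 or trazodone replicate 1 or 4) and sodium and calcium channels called higher (4 without water replicate 2 or 3). Other scalings moved by over 1.5 times the count of potassium channels called higher (5 after quantile normalization) and sodium and calcium channels called higher (4 after quantile normalization).

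Granins and prohormones fill dense-core vesicles, and several of their genes were called with and without the correction. Of 27 neuropeptide and granin genes, 6 rose (median 0.23), 6 with each library left out, and 4 higher and 1 lower were called after the correction. Chgb was measured at 163, 188 and 182 TPM in the water libraries and 348, 352, 311 and 342 TPM in the trazodone libraries (0.93 ± 0.11; 0.72 corrected) and Chga at 74.8, 73.8 and 88.5 TPM in the water libraries and 153, 147, 149.7 and 145 TPM in the trazodone libraries (0.91 ± 0.11; 0.58). Both chromogranins separated the groups. Pcsk1n, an inhibitor of prohormone convertase 1, rose from 627 to 1094 TPM (0.81; 0.51), and Vgf, a neurotrophin-induced granin, stood at 185, 184 and 191 TPM in the water libraries and 374, 262, 255 and 314 TPM in the trazodone libraries (0.67; 0.16, not called after the correction). The corrected fit no longer called Pcsk1n without water replicate 2 (adjusted p 0.0628).

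Immediate early genes, which are induced by neuronal activity, had 6 of 34 higher (median 0.24), and 1, Ier5, after the correction (median -0.03). Ier5 rose from 52 ± 1.37 TPM (SD, n = 3) to 85 ± 4.41 TPM (n = 4) (0.70; 0.54). Npas4, a neuron-restricted activity factor, was at 7.07, 9.67 and 12.8 TPM in the water libraries and 16.1, 21.9, 16.3 and 23.5 TPM in the trazodone libraries (0.97 ± 0.22; 0.71), and Jund rose from 244 to 388 TPM (0.67; 0.06). Among 26 cytoskeletal genes of axons and dendrites, 11 rose (median 0.26), with 1 higher and 1 lower after the correction. Map1a, a dendritic microtubule protein, stood at 249.5, 229.7 and 191 TPM in the water libraries and 374, 353, 361 and 321 TPM in the trazodone libraries (0.66; 0.42). Mapt (tau) and Nefm (medium neurofilament) rose from 177 to 273 TPM and from 122 to 209.5 TPM and did not pass after the correction. In the corrected values, the call ended for Ier5 without water replicate 1, 2 or 3 or trazodone replicate 1, 2, 3 or 4 (adjusted p 0.0549 to 0.108) and Map1a without water replicate 2 or 3 or trazodone replicate 1 (adjusted p 0.0511 to 0.0651). Thymosin, Bex and other small-protein genes had 19 of 44 higher and 1 lower (median 0.27), and 9 higher and 0 lower after the correction (median 0.21); 12 to 18 were higher in the deposited values with single libraries left out. Besides Tmsb10 and Bex3, Sumo3, a ubiquitin-like modifier, was measured at 67.2, 54.4 and 73.5 TPM in the water libraries and 152, 163, 152 and 127 TPM in the trazodone libraries (1.19 ± 0.11; 1.10), and Tceal5 rose from 37.1 to 96.1 TPM (1.36; 1.19). The Sumo3 entry may hold reads of the neighbouring Gm49325, a gene without its own entry. Counts that moved by over 1.5 times without a library were those of thymosin, Bex and other small protein genes called higher (12 without water replicate 1). Corrected counts that moved by over 1.5 times without a library were those of thymosin, Bex and other small protein genes called higher (5 without water replicate 1). Under other scalings, the count moved by over 1.5 times for thymosin, Bex and other small protein genes called higher (12 after quantile normalization).

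**Figure D4:**
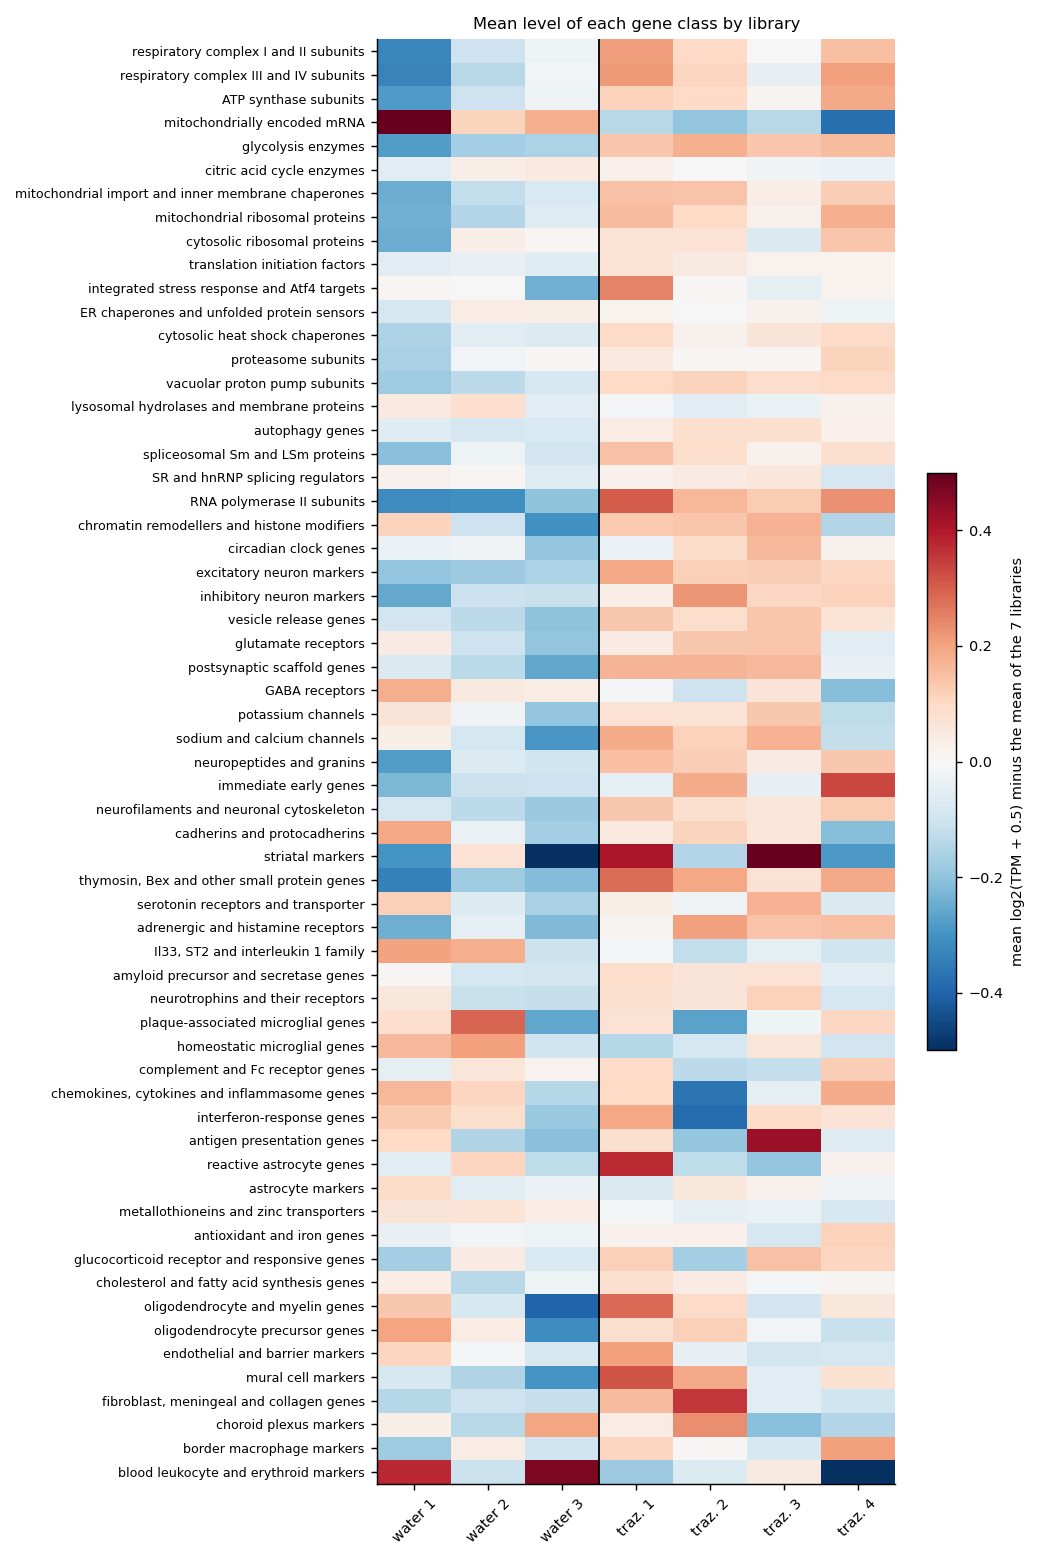
Mean log2(TPM + 0.5) of each gene class in each APP/PS1 library, minus the mean of the 7 libraries; red is higher and blue lower, and colours end at 0.5 in either direction. RNA polymerase II subunits and glycolysis enzymes separate the 3 water from the 4 trazodone libraries, whereas striatal markers and interferon-response genes vary among libraries of the same group.

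No serotonin receptor or transporter gene passed the test, and 2 adrenergic and histamine receptor genes rose. Of 15 tested serotonin receptor and transporter genes, limma called 0 at adjusted p under 0.05, and 1 had an unadjusted p under 0.05 (0 after the correction). Htr2a, the receptor trazodone blocks, was measured at 15.2, 15.2 and 14.1 TPM in the water libraries and 12.9, 11.9, 13.7 and 12.5 TPM in the trazodone libraries (-0.21 ± 0.11, adjusted p = 0.224; -0.03 after the correction). Its groups did not overlap, and the gene did not pass the test. Htr2c, Htr1a and Htr6 had log2 fold changes of -0.39, 0.21 and 0.55, and none of the 3 passed the test. The transporter Slc6a4, whose mRNA is made by neurons of the brainstem, was listed at 0.0969, 0.0295 and 0.0288 TPM with water and 0.0838, 0.0975, 0 and 0.0519 TPM with trazodone and lay below the minimum. Among 11 adrenergic and histamine receptors, 2 rose as deposited (2 to 4 with single libraries left out), and limma called 0 after the correction, where 1 had an unadjusted p under 0.05. Adra1d, an alpha-1 receptor, stood at 31.9, 31.4 and 31.8 TPM in the water libraries and 51.4, 58.9, 49.2 and 60.8 TPM in the trazodone libraries (0.78 ± 0.16, adjusted p = 0.0052; 0.24 after the correction). Hrh3, the histamine autoreceptor, rose from 62.4 to 87.2 TPM (0.48; 0.03). The other alpha-1 genes Adra1a and Adra1b had log2 fold changes of -0.002 and 0.13, and Hrh1 of 0.78, with overlapping groups in each.

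ST2 mRNA lay below the minimum of 0.5 TPM and was lower in each trazodone library than in each water library, without passing the test. Il1rl1 (chr1:40429570-40465415, plus strand, GRCm38) was measured at 0.571, 0.651 and 0.584 TPM in the water libraries and 0.436, 0.275, 0.188 and 0.265 TPM in the trazodone libraries, and the WT mean was 0.182 TPM. The highest trazodone value, of replicate 1, lay below the lowest water value. The difference on the log2(TPM + 0.5) scale was -0.49, from 0.602 ± 0.0431 TPM (SD, n = 3) to 0.291 ± 0.105 TPM (n = 4), with p = 0.0571 in a two-sided exact permutation test over the 7 libraries, in which the smallest possible p is 0.0286. In a limma fit that kept genes down to 0.1 TPM the adjusted p was 0.0974. The GC and length correction covered genes above the minimum only, so Il1rl1 has no corrected value. The entry counts the gene as a whole, so the soluble and membrane-bound forms were not measured apart. Il33, the nuclear cytokine that binds ST2, stood at 74, 73.9 and 61.2 TPM in the water libraries and 60.5, 48.7, 51.6 and 54.5 TPM in the trazodone libraries (-0.37 ± 0.10, adjusted p = 0.0183; -0.25 after the correction, not called). Il18, a cytokine matured by the inflammasome, was at 60.4, 67.9 and 71.4 TPM in the water libraries and 43.7, 47.7, 46 and 42.2 TPM in the trazodone libraries and fell by 0.56 ± 0.09 on the log2 scale (adjusted p = 0.00146; -0.53 after the correction). Il1rap, the shared coreceptor, was at 34.6, 28.7 and 24.1 TPM in the water libraries and 24.9, 23.8, 24.9 and 24.9 TPM in the trazodone libraries (adjusted p = 0.189). Of the 15 tested members of this family, 2 fell and the others did not pass the test (median -0.17). With single libraries left out, limma no longer called Il33 without water replicate 1 or 2 or trazodone replicate 2 (adjusted p 0.0572 to 0.0776). Corrected for GC and length, limma counts were 0 higher and 1 lower for Il33, ST2 and interleukin 1 family.

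App mRNA rose with trazodone. It was measured at 2066, 2003 and 1714 TPM in the water libraries and 2921, 2782, 2592 and 2513 TPM in the trazodone libraries, with a WT mean of 905 TPM, a log2 fold change of 0.49 ± 0.12 (adjusted p = 0.0138; 0.52 ± 0.13 after the correction). Each trazodone library exceeded each water library. The mouse App entry (chr16:84949685-85173766, minus strand) sums whatever reads of the endogenous gene and the transgene mapped there, and the 2 were not told apart. Among deposited values, limma no longer called App without water replicate 3 (adjusted p 0.0602). On corrected values, limma no longer called App without water replicate 1, 2 or 3 or trazodone replicate 1, 2 or 4 (adjusted p 0.0859 to 0.102). Prnp, the prion protein gene, whose promoter drives the transgenes in a common APP/PS1 line, stood at 3213, 3202 and 3346 TPM in the water libraries and 3164, 2889, 2968 and 3209 TPM in the trazodone libraries (log2 fold change -0.09 ± 0.07, adjusted p = 0.399), with overlapping groups. Its entry may hold reads of the neighbouring Prn. Of 22 amyloid precursor and secretase genes, 5 rose (3 to 5 with single libraries left out), among them Aplp1 (from 999 to 1308 TPM, 0.03 after the correction), the amyloid precursor-like protein of neurons, and Ece1, an amyloid-degrading protease (from 24.9 to 36.1 TPM, 0.29 after the correction), and 1 higher and 1 lower were called after the correction. Of 14 neurotrophin and receptor genes, 1 rose and 0 fell (median 0.04), with 0 higher and 0 lower after the correction. Bdnf, which supports synapses and neuronal survival, was at 21.1, 19.5 and 16.6 TPM in the water libraries and 21.3, 14.2, 13.3 and 15.6 TPM in the trazodone libraries (adjusted p = 0.343). With a library left out, the count moved by over 1.5 times for amyloid precursor and secretase genes called higher (3 without trazodone replicate 2). Scaling moved by over 1.5 times the count of amyloid precursor and secretase genes called higher (3 after quantile normalization and after rescaling).

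**Figure D5:**
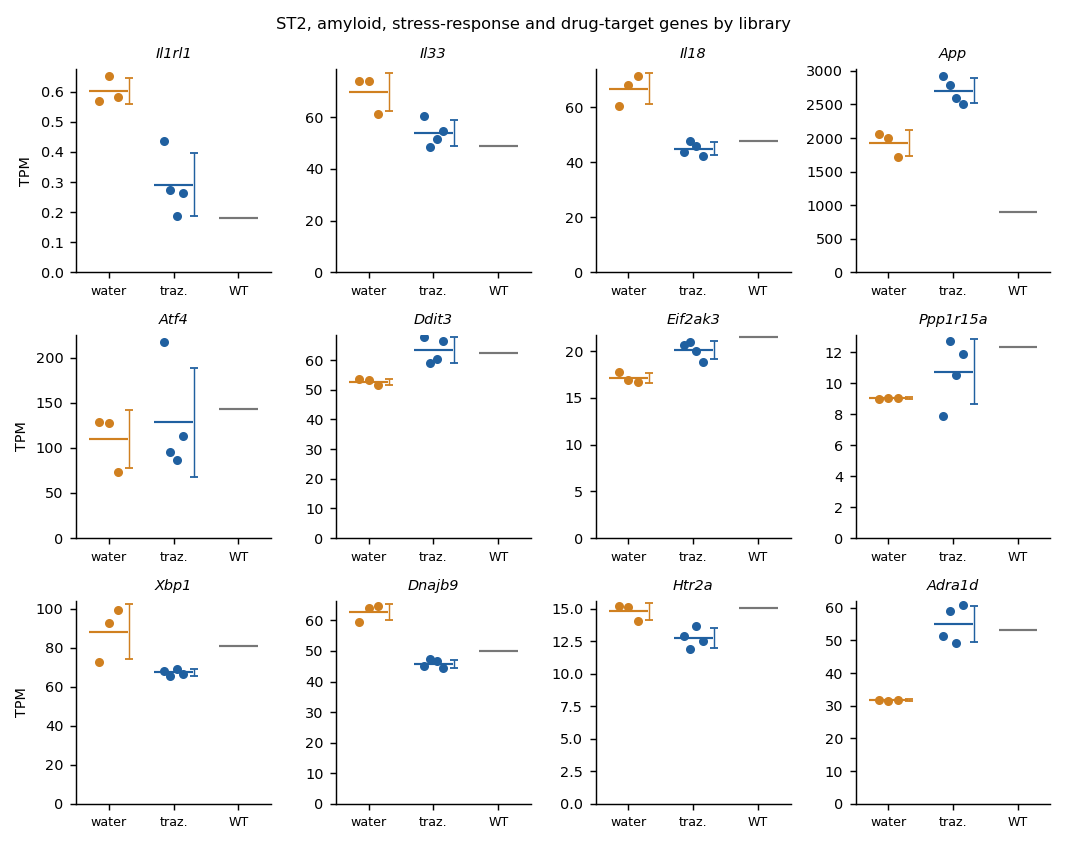
TPM of 12 genes of the ST2, amyloid, stress-response and drug-target pathways in each APP/PS1 library given water (orange) or trazodone (blue); lines are means, bars are SD (n = 3 and n = 4), and the grey line is the WT mean (n = 6). Il1rl1, Il33, Il18, Xbp1 and Dnajb9 are lower in every trazodone library than in every water library, App, Ddit3 and Adra1d are higher, and Atf4 and Ppp1r15a overlap.

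Few microglial and inflammatory genes passed the test. Of 30 plaque-associated microglial genes, Apoe rose, Clec7a fell and the others did not pass the test (median -0.08), and limma called 0 after the correction (6 at an unadjusted p under 0.05). Their summed level was 6288 to 8390 TPM with water and 6975 to 8292 TPM with trazodone, and the ranges overlapped. Trem2, the microglial lipid receptor, was measured at 117, 141 and 109 TPM in the water libraries and 108, 99.1, 97 and 121 TPM in the trazodone libraries (adjusted p = 0.379), and Cst7, an inhibitor of cathepsins, at 122, 174 and 64.7 TPM in the water libraries and 104, 67.8, 99.8 and 149.9 TPM in the trazodone libraries (adjusted p = 0.867). Clec7a, the receptor dectin-1, stood at 29, 35.2 and 25.1 TPM in the water libraries and 21, 12.9, 16.6 and 23.6 TPM in the trazodone libraries (-0.69 ± 0.22). Apoe, the lipid carrier made by astrocytes and reactive microglia, stood at 469, 954 and 408 TPM in the water libraries and 921, 928, 1571 and 1363 TPM in the trazodone libraries (1.04 ± 0.33), and water replicate 2 lay within the trazodone range. Of 19 homeostatic microglial genes, Gpr34, a lysophosphatidylserine receptor, fell from 73.9 ± 3.81 TPM (SD, n = 3) to 43.3 ± 5.78 TPM (n = 4) (-0.77; -0.48 after the correction, not called). Aif1 (Iba1) was at 37.3, 36.6 and 37.9 TPM in the water libraries and 25.3, 23.6, 18.3 and 31.8 TPM in the trazodone libraries (adjusted p = 0.0754). The median of the homeostatic list was -0.13 as deposited and -0.25 after the correction, where limma called 0 and 7 had an unadjusted p under 0.05. Its mean log2(TPM + 0.5) was 5.49 ± 0.16 (SD, n = 3) with water and 5.33 ± 0.09 (n = 4) with trazodone. As deposited, the call was lost for Clec7a without water replicate 1, 2 or 3 or trazodone replicate 1, 2 or 3 (adjusted p 0.0502 to 0.172) and Apoe without water replicate 1 or 3 or trazodone replicate 1, 2, 3 or 4 (adjusted p 0.0544 to 0.178).

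Complement and Fc receptor genes had 2 lower of 20, Fcer1g and C3ar1. Fcer1g, the signalling chain of activating Fc receptors, was measured at 89.8, 129.9 and 84.9 TPM in the water libraries and 66.6, 55.6, 54.4 and 77.5 TPM in the trazodone libraries (-0.66 ± 0.16, adjusted p = 0.0144; -0.80 after the correction), and C3ar1, the C3a receptor, fell from 8.02 to 5.66 TPM (-0.47; -0.35). C1qa, a chain of complement C1q, stood at 138, 222 and 183 TPM in the water libraries and 298, 212, 269 and 289.6 TPM in the trazodone libraries (adjusted p = 0.0678) and overlapped. Deposited values lost their call for Fcer1g without water replicate 2 (adjusted p 0.0724) and C3ar1 without water replicate 1 or 2 or trazodone replicate 1, 3 or 4 (adjusted p 0.0548 to 0.124). Once corrected, the call was lost for Fcer1g without water replicate 2 (adjusted p 0.0664). Among 21 chemokines, cytokines and inflammasome genes, 2 rose as deposited, and limma called 0 after the correction (2 at an unadjusted p under 0.05). None of 27 interferon-response genes was called by limma, as deposited (2 at an unadjusted p under 0.05) or corrected (2). Antigen presentation had 2 of 20 higher, including Tapbp, which loads peptides on class I molecules (from 45.7 to 71.8 TPM; 0.36 after the correction, not called); its entry may hold reads of the neighbouring Zbtb22. The limma counts on corrected values were 0 higher and 1 lower for complement and Fc receptor genes, 0 in either direction (1 at an unadjusted p under 0.05) for antigen presentation genes.

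Few reactive astrocyte genes passed the test. Reactive astrocyte genes had 0 higher, against 12.5% of all genes, and 1 of 28 lower, Vim (vimentin), at 86.6, 88.9 and 79.9 TPM in the water libraries and 68.9, 61.4, 40.8 and 62.2 TPM in the trazodone libraries (-0.57 ± 0.18; -0.56 after the correction, not called). Gfap, the main reactive astrocyte filament, was measured at 933, 1000 and 904 TPM in the water libraries and 1137, 936, 810.4 and 1332 TPM in the trazodone libraries (adjusted p = 0.676), with overlapping groups. General astrocyte markers gave 3 higher and 1 lower of 17, and 1 to 2 higher and 3 lower under the other scalings. As deposited these were 17.65% and 5.88% of the list, against 12.5% and 3.92% of all genes. The member called lower was Gjb6, and the 3 called higher are not named here. Gjb6, connexin 30 of astrocyte gap junctions, fell from 91 ± 18.6 TPM (SD, n = 3) to 66.2 ± 6.12 TPM (n = 4) (-0.44; -0.53). With single libraries left out, limma no longer called Vim without water replicate 1, 2 or 3 or trazodone replicate 2, 3 or 4 (adjusted p 0.0635 to 0.131) and Gjb6 without water replicate 2 or 3 or trazodone replicate 1 or 2 (adjusted p 0.0677 to 0.122). After the correction, limma no longer called Gjb6 without water replicate 2 or 3 or trazodone replicate 1, 2, 3 or 4 (adjusted p 0.0575 to 0.163). By limma after the correction, members called were 0 in either direction (5 at an unadjusted p under 0.05) for reactive astrocyte genes, 0 higher and 1 lower for astrocyte markers. Left-out libraries moved by over 1.5 times the count of astrocyte markers called higher (1 without water replicate 2).

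Metallothioneins, small proteins that bind zinc and copper and are made largely by astrocytes, were lower with trazodone, with Mt1 and Mt2 both past the test. Mt1 and Mt2 lie next to each other on chr8 and share an induction by metal-bound transcription factor Mtf1 at metal response elements and by glucocorticoids. Their promoters are shown because both genes fell, with the core of the element (TGCACNC or TGCGCNC, both strands) in capitals. They were taken from RefSeq (GRCm38.p6), at chr8:94178839-94179138 for Mt1 and chr8:94172368-94172667 for Mt2, both on the plus strand. Mt1 held 3 matches and Mt2 4, and 25.7% of 32851 promoters held at least 1, so a match describes letters only.
Mt1 promoter: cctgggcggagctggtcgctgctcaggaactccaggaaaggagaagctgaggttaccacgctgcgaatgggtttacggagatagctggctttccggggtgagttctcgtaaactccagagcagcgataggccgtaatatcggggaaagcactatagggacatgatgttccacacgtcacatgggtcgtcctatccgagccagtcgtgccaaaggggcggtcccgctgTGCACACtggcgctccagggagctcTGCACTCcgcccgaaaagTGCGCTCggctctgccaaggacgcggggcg
Mt2 promoter: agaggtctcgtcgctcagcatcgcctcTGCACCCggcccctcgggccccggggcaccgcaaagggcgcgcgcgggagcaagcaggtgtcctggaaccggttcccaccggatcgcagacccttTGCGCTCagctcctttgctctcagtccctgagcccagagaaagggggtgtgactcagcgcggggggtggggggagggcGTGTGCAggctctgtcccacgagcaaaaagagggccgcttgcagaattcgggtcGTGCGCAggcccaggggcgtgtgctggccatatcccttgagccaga
Mt1 was measured at 1059, 1320 and 1119 TPM in the water libraries and 759, 671, 730.2 and 856 TPM in the trazodone libraries, with a WT mean of 626 TPM. It fell by 0.63 ± 0.10 on the log2 scale (adjusted p = 0.00142) and by 0.80 ± 0.11 after the correction. Mt2 stood at 311, 439 and 364 TPM in the water libraries and 265, 252, 261 and 303 TPM in the trazodone libraries (-0.45 ± 0.12, adjusted p = 0.0205; -0.68 after the correction). No trazodone library overlapped a water library in either gene. Among deposited values, limma no longer called Mt2 without water replicate 2 or trazodone replicate 2 (adjusted p 0.0587 to 0.103). Corrected calls ended for Mt2 without water replicate 2 (adjusted p 0.0582). In the class with zinc transporters, 4 of 17 fell and 1 rose (0 higher and 3 lower after the correction); the glucocorticoid-responsive list, which also holds Mt2, had 1 higher and 1 lower of 20. Members of the metallothionein class called lower numbered 1 to 4 with single libraries left out. Corrected for GC and length, limma counts were 0 higher and 1 lower for glucocorticoid receptor and responsive genes. A left-out library gave over 1.5 times more or fewer of metallothioneins and zinc transporters called lower (1 without trazodone replicate 2, 2 without water replicate 2).

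Antioxidant and iron genes had 5 of 31 higher (3 to 5 with single libraries left out) and a median of -0.02; quantile normalization gave 3 higher and 4 lower. Sod1, the cytosolic superoxide dismutase, was measured at 256, 284 and 263 TPM in the water libraries and 518, 461, 436 and 504 TPM in the trazodone libraries, a rise of 0.84 ± 0.09 (adjusted p = 1.50e-04; 0.81 ± 0.12 after the correction) and the member called there. The WT mean was 429 TPM. Of 30 cholesterol and fatty acid synthesis genes, 6 rose and 1, Mvd, did so after the correction, and quantile normalization gave 2 higher and 3 lower. Mvd, a decarboxylase of the mevalonate pathway, rose from 21.3 ± 3.83 TPM (SD, n = 3) to 36.6 ± 2.84 TPM (n = 4) (0.78; 0.44). The corrected fit no longer called Mvd without water replicate 2 or trazodone replicate 1, 2, 3 or 4 (adjusted p 0.0549 to 0.0959). Among 22 oligodendrocyte and myelin genes, 4 rose (0 to 6 with single libraries left out), and limma called 0 after the correction (2 at an unadjusted p under 0.05). Mbp, myelin basic protein, chosen after its values were seen, was at 617, 502 and 354 TPM in the water libraries and 1138, 957, 766 and 857 TPM in the trazodone libraries (0.94 ± 0.22; 0.81). As deposited, the call was lost for Mbp without water replicate 3 (adjusted p 0.052). Precursor genes gave 1 higher and 1 lower of 13. The limma counts on corrected values were 1 higher and 0 lower for antioxidant and iron genes, 0 in either direction (3 at an unadjusted p under 0.05) for oligodendrocyte precursor genes. Counts that moved by over 1.5 times without a library were those of antioxidant and iron genes called higher (3 without water replicate 2) and oligodendrocyte and myelin genes called higher (0 without water replicate 3, 1 without water replicate 2 or trazodone replicate 1, 2 or 4). Other scalings moved by over 1.5 times the count of antioxidant and iron genes called higher (3 after median-ratio scaling and after quantile normalization), cholesterol and fatty acid synthesis genes called higher (2 after quantile normalization) and oligodendrocyte and myelin genes called higher (1 after median-ratio scaling and after quantile normalization, 2 on FPKM and after rescaling).

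Markers of vascular, meningeal, choroid plexus, border macrophage and blood cells were checked as whole lists. Limma called 0 of 21 endothelial and barrier markers (2 at an unadjusted p under 0.05), 0 of 11 choroid plexus markers (0), 0 of 10 border macrophage markers (1) and 0 of 8 blood markers (1). Their summed levels were 1113 to 1182 TPM with water and 1104 to 1474 TPM with trazodone for endothelium, 184 to 203 TPM with water and 156 to 190.5 TPM with trazodone for choroid plexus, and 29.4 to 35.4 TPM with water and 27.9 to 35.2 TPM with trazodone for border macrophages. Blood markers summed to 38.8 to 72 TPM with water and 26.3 to 51.9 TPM with trazodone. Hba-a1, a hemoglobin chain, was at 18.6, 10.1 and 23.1 TPM in the water libraries and 11.1, 13.2, 13.4 and 7.31 TPM in the trazodone libraries, and Ptprc (CD45), the leukocyte marker that microglia also express, at 11.9, 11.3 and 7.42 TPM in the water libraries and 6.3, 5.52, 7.11 and 6.75 TPM in the trazodone libraries (adjusted p = 0.0734). Mural cell markers had 3 of 16 higher, among them the smooth muscle genes Tagln (from 9.64 to 17.3 TPM, 0.80; 0.64) and Myl9 (from 15.3 to 27.2 TPM, 0.80; 0.53), and fibroblast and collagen genes 3 of 22 (0 to 3 with single libraries left out). Limma called 0 of either list after the correction (3 and 2 at an unadjusted p under 0.05). By limma after the correction, members called were 0 in either direction (2 at an unadjusted p under 0.05) for endothelial and barrier markers, 0 in either direction (0 at an unadjusted p under 0.05 in each) for choroid plexus markers, border macrophage markers and blood leukocyte and erythroid markers. With a library left out, the count moved by over 1.5 times for fibroblast, meningeal and collagen genes called higher (0 without water replicate 2 or trazodone replicate 2, 1 without water replicate 1 or 3). It was 0 after median-ratio scaling and 1 after quantile normalization and after rescaling. As deposited, 13.6% of that list was called higher, near the 12.5% of all genes.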

How the data were processed

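Libraries were chosen by their labels, and functional gene classes were chosen with earlier results of these data known. Per the submitters' processing notes, fastp, STAR and DESeq2 were used with GRCm38 (mm10), and versions are not stated. The authors deposited FPKM and TPM per gene, per the file headers, for 53832 entries, 25412 of them merged transcript models that can take in reads of neighbouring genes. Whether counting used strand is not stated. Per the labels, paired-end libraries were read on a NextSeq or a NovaSeq instrument, and the instrument of each library is not stated. Estimated depth, from FPKM steps, was 31.4 to 32.4 (water) and 33.7 to 37.7 (trazodone) M fragments.

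Genes whose mean reached 0.5 TPM were put on the log2(TPM + 0.5) scale and fitted by limma 3.58.1 (R 4.3.3; eBayes with trend) over the 13 libraries in 3 groups, with two-sided tests and a call at a Benjamini-Hochberg adjusted p below 0.05. No statement says that libraries are separate animals, so p-values measure the spread between them. The correction subtracted a loess trend (span 0.4) on GC content and log2 length. The limma fit was tested on simulated data that held no GC trend, and the correction was not tested there. Genes were named by a rule: the 10 largest called changes in each direction with at least 1 TPM, groups that do not overlap and no predicted genes, up to 6 called members of each class by p (up to 3 members where fewer than 3 were called), and genes of the drug, ST2 and amyloid pathways. Of the 312 so named, those that illustrate a class are printed. Rps21, Rps27, Rps6, Hnrnpf and Mbp lie outside the rule and were chosen after their values were seen. Alternatives were other pseudocounts, minimums, scalings, fits, thresholds, blocks on replicate numbers and leaving out each library; leaving out single libraries after the GC correction was chosen after seeing the data. Promoters came from RefSeq. A few genes named by the rule are not reported here.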

Additional observations from a re-analysis of the deposited data

Results flagged for a closer look

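In each result listed here, 1 of the 4 trazodone libraries lay apart from the other 3: its gap to the nearest library, divided by the range of the group on the log2(TPM + 0.5) scale, exceeded Dixon's 95% critical value for 4 samples. Of 209 groups of 4 examined, 14 met this, and chance flags about 1 in 20 groups.

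Among the largest changes in TPM, for Atp6v0c trazodone replicate 1 was at 493 and the other 3 at 1087 to 1172 (gap over range 0.913), and for Stx16 trazodone replicate 4 was at 28.6 and the other 3 at 71.3 to 79 (gap over range 0.898). For Chmp3, trazodone replicate 1 was at 94.6 and the other 3 at 81.5 to 82.7 (gap over range 0.903). For Snhg6, trazodone replicate 4 was at 25.6 and the other 3 at 34.9 to 36.5 (gap over range 0.87), and for mt-Ty trazodone replicate 1 was at 334 and the other 3 at 432 to 455 (gap over range 0.83). Leaving out trazodone replicate 4 did not end the call of Stx16, whereas leaving out any of the other trazodone libraries did.

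Of the neuronal and amyloid genes, for Nefm trazodone replicate 2 was at 193 and the other 3 at 213 to 217 (gap over range 0.858), and for Aplp1 trazodone replicate 3 was at 1213 and the other 3 at 1329 to 1349 (gap over range 0.863). For the microglial receptor Gpr34, trazodone replicate 3 was at 51.9 and the other 3 at 39.7 to 41.5 (gap over range 0.831). For Il1rap, trazodone replicate 2 was at 23.8 and the other 3 at 24.9 (gap over range 0.947), a gap between closely spaced values.

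Of the gene classes, as mean log2(TPM + 0.5), trazodone replicate 4 was the lowest library in 3. For postsynaptic scaffold genes, trazodone replicate 4 was at 6.857 and the other 3 at 7.057 to 7.065 (gap over range 0.961). For chromatin remodellers and histone modifiers, trazodone replicate 4 was at 5.004 and the other 3 at 5.282 to 5.325 (gap over range 0.867). For amyloid precursor and secretase genes, trazodone replicate 4 was at 6.166 and the other 3 at 6.286 to 6.309 (gap over range 0.841). For glucocorticoid receptor and responsive genes, trazodone replicate 2 was at 4.602 and the other 3 at 4.880 to 4.917 (gap over range 0.882), and for endothelial and barrier markers trazodone replicate 1 was at 5.026 and the other 3 at 4.731 to 4.780 (gap over range 0.834).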

How the results depend on the processing

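Against 2319 genes higher and 730 lower, quantile normalization gave 1502 and 1582, and the lower count was 1223 on FPKM, 1384 after median-ratio scaling and 1099 after rescaling without mitochondrial, ribosomal and hemoglobin genes. The GC and length correction gave 477 and 288, and the 7 APP/PS1 libraries alone gave 478 lower. Array weights gave 1132 lower, an adjusted p under 0.01 gave 1165 higher and 207 lower, and one under 0.1 gave 1171 lower. Restricting the genes to entries with Ensembl identifiers left 5 higher and 1 lower, among fewer genes tested. Of the 18612 genes tested, 17025 (91.5%) were merged transcript models. Merged models made up 98.9% of the genes called higher and 98.6% of those called lower, so calls were rarer among the other entries. The reason was not tested. With single libraries left out, 1652 to 2081 genes were higher and 395 to 639 lower, and after the correction 245 to 344 were higher and 107 to 279 lower. Except where a result names the reason, the cause was not tested. The other pseudocounts and minimums and robust estimation kept both counts within 1.5 times. mt-Nd2 turned to a log2 fold change of 0.0916 under quantile normalization, and no other named gene that was called changed direction.

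Of the 128 called genes that are named, 83 stayed called after the correction and 44 did not. Scaling ended 2 to 4 of these calls, leaving out a library 6 to 19, and the fit of the 7 libraries alone 11. Il1rl1 lay below the minimum of 0.5 TPM, so limma fits at that minimum, the GC and length correction among them, did not hold it. In the alternatives run for it, Il1rl1 kept its direction and stayed short of the threshold.

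Water and trazodone libraries share replicate numbers in titles and in library names. Deviations of same-numbered pairs correlated at 0.10, 0.05 and -0.04 by title and at 0.10, -0.02 and 0.15 by library name. Pairs with unlike numbers ran from -0.14 to 0.15 by title and from -0.14 to 0.06 by library name. The labels state no block, and so few pairs cannot decide whether equal numbers mark one. With a replicate block on the title number 297 genes were higher and 19 lower, with one on the library name number 595 and 66, and with the title block and the GC correction together 11 and 1. Of the 128 named calls, these blocks ended 73, 43 and 120. The block fits held only the 7 APP/PS1 libraries and added block terms, whereas the main fit held 13 libraries. They therefore had less power to call a gene, and the loss of calls does not measure a block alone. Depth was estimated from the smallest steps of FPKM, since the tables give no read totals, and low genes such as Il1rl1 are the least precise.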
